A study of Saccharomyces cerevisiae with 10 samples.

Results

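Pools of yeast deletion strains that had been selected under benomyl at 25, 30, 35 and 40 µg/ml were compared with pools selected at 5, 10, 15 and 20 µg/ml. The 8 arrays of this comparison were chosen by the dose in their labels, 4 in each range, out of 10 arrays in the series; the remaining arrays, at 0 and 1 µg/ml, serve as reference values. Per the labels, a mixed pool of heterozygous diploid knockout strains of Saccharomyces cerevisiae was sporulated, and haploid MATa cells were selected at 30 °C on a medium that permits growth of such haploids, with the drug and, for each dose, in parallel without it. Within the lower range the 2 smallest doses (5 and 10 µg/ml) were selected for 2 days, the dose of 15 µg/ml for 3 days and that of 20 µg/ml for 4 days, as were all doses of the upper range. Dose range and days of selection therefore move together. No dose had a second array, so the spread inside a range is the spread between different doses.

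Each deletion strain carries short DNA barcodes, called uptag and downtag, that replace the deleted gene together with a marker and identify the strain in a pool. Barcodes of both pools were amplified, labelled and hybridised together, the pool without drug in Cy5 and the pool with drug in Cy3. Benomyl binds β-tubulin and depolymerises microtubules. Cells with a damaged spindle are held before anaphase by the spindle checkpoint, and strains that make too little tubulin, fold it poorly or lack the checkpoint are known for sensitivity to the drug. The deposited value is a log2 ratio of the 2 dyes. The numerator is not stated in the sources used here; with Cy5 over Cy3, the default of the image program, a positive value means that the strain was scarcer in the drug pool, and this direction is likely. All signs below would turn otherwise. Values are relative to the median strain of the array, so a rise between the ranges means that, set against the median strain, fewer of its barcodes were found with drug, and a fall means that more were found. The ratio does not show which of the 2 pools changed, and fewer cells of a strain cannot be told apart from a barcode that amplified or bound less well.

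The upper dose range separated the strains more widely. The standard deviation of the log2 ratios across 5325 strains was 0.890, 0.857, 0.721 and 0.729 at 5, 10, 15 and 20 µg/ml, and 1.01, 1.14, 1.29 and 1.46 at 25, 30, 35 and 40 µg/ml. The share of strains that were 2-fold or more off the array median was 18.4%, 18.1%, 11.8% and 12.8% in the lower range and 20.5%, 23.6%, 29.1% and 37.4% in the upper range. Neither measure overlapped between the ranges, and within the lower range the 2-day arrays were higher than the arrays of 3 and 4 days. The mean SD was 1.22 ± 0.195 (SD, n = 4 arrays) against 0.799 ± 0.0868 (n = 4), and the mean share was 27.6% ± 7.41 (SD, n = 4) against 15.3% ± 3.47 (n = 4). In each case the 2-sided exact permutation test gave p = 0.0286, the smallest value that 4 against 4 arrays allow. On the arrays at 0 and 1 µg/ml the SD was 0.506 and 0.562 and the share 6.25% and 7.46%. At 20 and 25 µg/ml, neighbouring doses with equal days of selection, the share went from 12.8% to 20.5%.

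**Figure D1:**
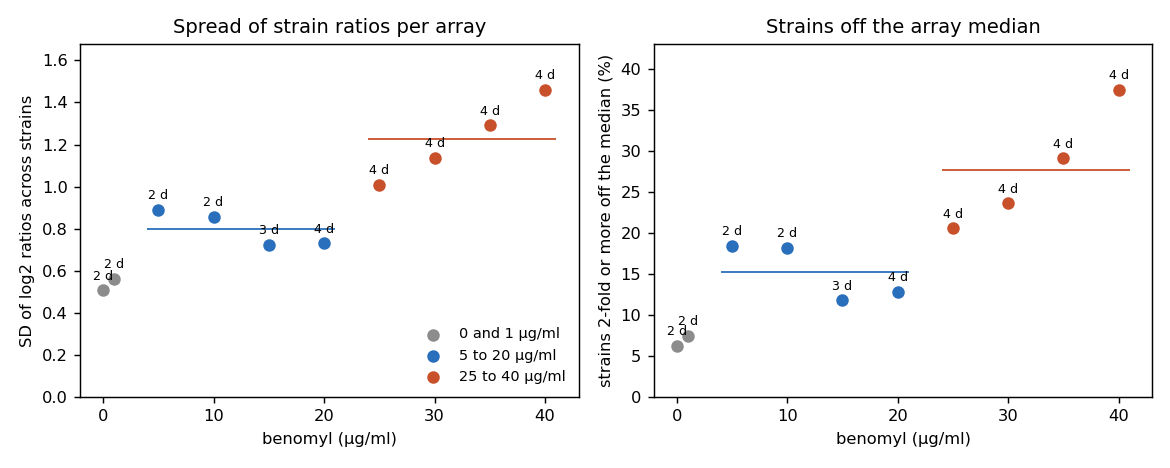
Spread of the strain ratios on each array (left, SD of log2 ratios across strains) and share of strains at least 2-fold off the array median (right, percent) against benomyl dose in µg/ml; each point is 1 array with its days of selection (d), and horizontal lines are the means of the lower and upper range. The 4 upper-range arrays, from 20.5% to 37.4%, lie above the 4 lower-range arrays, from 11.8% to 18.4%.

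A moderated linear model (limma) on the 4 upper and 4 lower arrays, with p-values adjusted over 5325 strains and a threshold of 0.05, found 332 strains that rose, which is 6.23% of those tested, and 281 that fell, which is 5.28%. These strains are referred to as called. Counts of called strains in the gene lists below are to be read beside these shares over all strains. The median difference over all strains was 0.04 on the log2 scale. Among the called strains 84 rose and 96 fell by at least 4-fold. In 566 of the 613 called strains the 4 upper and 4 lower values did not overlap, so lack of overlap adds little to a call. It was also a condition for naming the largest rises and falls. Of the 332 rises, 245 started within 2-fold of the array median as the mean of the lower range, and 197 of these ended at least 2-fold above it. Another 67 started at least 2-fold below the median, of which 54 came back to within 2-fold, 10 crossed to at least 2-fold above and 3 stayed below, and 20 were already at least 2-fold above. Of the 281 falls, 103 were already at least 2-fold below in the lower range, 162 started within 2-fold, of which 113 ended at least 2-fold below, and 16 came down from at least 2-fold above to within 2-fold. No called strain crossed downward from 2-fold above to 2-fold below. The sign of the change from 20 to 25 µg/ml was that of the difference between the ranges in 610 of the 613 called strains, and this single step made up 71.3% of the difference in the median called strain; both arrays also entered the call, so this describes the courses and tests nothing.

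The calls depended on how days of selection were handled. All upper arrays had 4 days, so a fit with days takes its slope from the lower range alone, where days rose with dose. Its difference is the upper mean minus the value at 4 days of a line through the lower range. Days and dose cannot be told apart in this fit. With days as a covariate, 42 strains were higher (0.789%) and 67 lower (1.26%), of which 101 were called in the same direction without it; each of the 613 kept the sign of its difference. The strain values below are from the fit without days, and the adjusted p with days is added for the main strains that this fit also called. Without 1 array in turn, rises numbered 174 to 372 and falls 145 to 379, fewest without the 15 µg/ml array and most without the 25 µg/ml array, and 267 of the 613 strains kept their call whichever array was omitted. Scaling the arrays to equal spread left 219 rises and 139 falls. As deposited, without centring, the median strain lay 0.23 higher in the upper range, and 495 strains rose and 218 fell, so that 69.4% of calls were rises against 54.2% after centring.

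**Figure D2:**
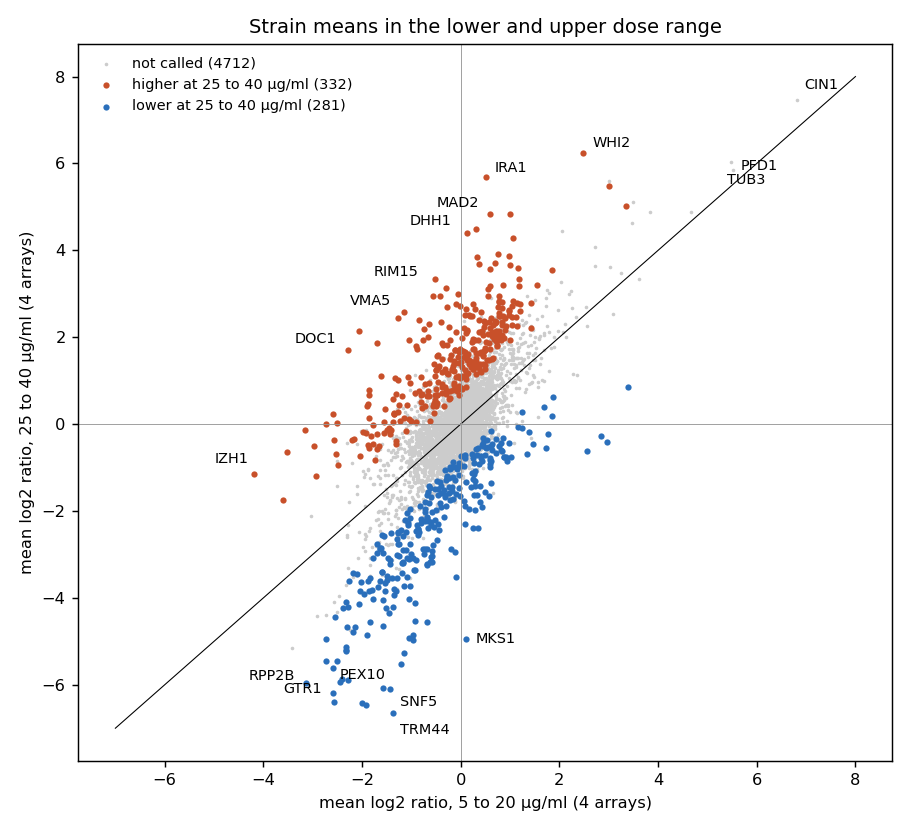
Mean log2 ratio of each of 5325 strains over the 4 arrays at 25 to 40 µg/ml (vertical) against its mean over the 4 arrays at 5 to 20 µg/ml (horizontal), with the line of equality; orange points are the 332 strains that rose, blue points the 281 that fell, grey points the others. CIN1, TUB3 and PFD1 are high in both ranges and lie near the line, whereas MKS1, PEX10 and SNF5 lie far below it.

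Several strains of tubulin supply had high ratios in both ranges and were not called. CIN1 (YOR349W), a tubulin folding cofactor, had log2 ratios of 6.52, 6.71, 7.12 and 6.93 at 5 to 20 µg/ml and 8.51, 7.0, 7.24 and 7.09 at 25 to 40 µg/ml. The ranges overlapped in the sense that the 30 µg/ml value lay below the highest value of the lower range, and the difference was 0.64 ± 0.34 (SE, 4 against 4 arrays, adjusted p = 0.271). It turned to -2.31 with arrays scaled to equal spread and to -0.34 after quantile normalization. TUB3 (YML124C), the minor α-tubulin isotype, was at 4.36, 6.06, 5.95 and 5.51 and then at 6.31, 5.95, 5.87 and 5.96. CIN2, which acts on the folded tubulin dimer, stood at a mean of 5.80 in the lower and 6.01 in the upper range. The differences of TUB3 (0.55), CIN2 (0.21), PFD1, GIM5 and YKE2 also turned negative under both scalings, to between -2.16 and -0.83 with equal spread and between -1.08 and -0.31 after quantile normalization. In the list of 7 tubulin isotype and folding genes the median strain mean went from 3.00 to 5.59. The median of the strain differences was smaller, at 0.77 (0.42 with equal spread and 0.88 after quantile normalization), and 1 of the 7 rose. That strain lacks ALF1 (YNL148C), the cofactor of α-tubulin, and read -2.73, -1.85, 0.64 and 2.29, then 3.94, 2.61, 2.74 and 2.50. The groups did not overlap, but the 20 µg/ml value was close to the upper range, the difference of 3.36 ± 0.95 had an adjusted p of 0.049, and the call ended without any one of 7 arrays (adjusted p up to 0.12). With days as a covariate the difference was 0.42. CIN4, the small GTPase of the same pathway and not among the strains named by rule, followed a similar course, from -0.23 at 5 µg/ml to 5.37 at 20 µg/ml and 5.16 to 5.92 in the upper range, and was not called (2.59 ± 0.99, adjusted p = 0.126).

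TUB1 and TUB2 encode the essential α- and β-tubulin, so that a haploid strain is not thought to exist and the signal need not come from one. TUB1 differed by 0.14 ± 0.54 and TUB2 by 0.38 ± 0.60, and the ranges overlapped in both.

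Prefoldin is the chaperone that hands nascent tubulin and actin to the cytosolic chaperonin. Its 6 deletion strains had a median mean of 3.6 in the lower and 4.88 in the upper range. PFD1 (YJL179W) was at 4.00, 6.32, 6.03 and 5.73 and then at 6.47, 6.35, 5.44 and 5.14, with overlapping ranges and a difference of 0.33 ± 0.51. GIM5 differed by 0.23 ± 0.36 and YKE2 by 1.04 ± 0.37, neither called. PAC10 was the 1 strain of the 6 to rise, by 1.67 ± 0.42 (adjusted p = 0.0329), from 2.56, 3.87, 3.88 and 3.13 to 5.97, 4.78, 4.19 and 5.17. Its groups did not overlap, yet the rise lay in section 1 of the array layout (3.53) and not in section 2 (-0.19), it turned to -0.11 with arrays scaled to equal spread, and it lost the call without 5 of the 8 arrays (adjusted p up to 0.082). Over the list the median difference of 0.69 turned to -0.85 with equal spread and to -0.57 after quantile normalization.

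MIR1 and ISU1, both mitochondrial, were also among the 8 highest strains of the lower range. MIR1, the mitochondrial phosphate carrier, was at 2.75 to 5.03 in the lower and 3.05 to 3.59 in the upper range (-0.27 ± 0.44). ISU1, a scaffold for iron-sulfur clusters, was at 3.18 to 3.84 and then at 6.59, 5.67, 5.00 and 3.21, and was not called (1.62 ± 0.59, adjusted p = 0.111); the difference was -0.07 with equal spread and -0.06 after quantile normalization.

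Of 6 spindle checkpoint strains 3 rose in the upper range, and the median strain mean of the list went from 1.18 to 2.88. MAD2 (YJL030W), the checkpoint protein that inhibits the anaphase-promoting complex, read 0.48, 0.41, 0.20 and 1.31 at 5 to 20 µg/ml and 2.66, 4.09, 5.02 and 7.57 at 25 to 40 µg/ml. All 4 upper values lay above all 4 lower ones, and the difference was 4.24 ± 0.85 (adjusted p = 0.0126). MAD1 (YGL086W), which carries Mad2 to kinetochores, read 0.18, 0.40, 0.57 and 1.20 and then 2.50, 3.03, 4.18 and 4.59, a rise of 2.99 ± 0.45 (adjusted p = 0.00393), again with no overlap. Both kept the call without each array, but neither was called with days as a covariate. BUB1, the checkpoint kinase, had reached 2.47 by 20 µg/ml and lay between 2.72 and 2.79 throughout the upper range. Its rise of 1.57 ± 0.44 had an adjusted p of 0.049, which reached up to 0.114 without 1 array, and was 0.25 with days as a covariate. None of the 6 checkpoint strains fell, and the median difference was 1.19. This median was 0.17 with arrays scaled to equal spread, where 2 of the 6 were higher. MAD3 and BUB3, outside the naming rule, differed by 0.58 and 0.20 and were not called.

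Among 9 strains of the spindle position checkpoint and mitotic exit, BFA1 (YJR053W) rose. This gene encodes the partner of Bub2 that holds back mitotic exit until a nucleus reaches the bud. Its ratios were -0.16, 0.16, 0.20 and 0.27 and then 1.65, 2.35, 3.30 and 3.32, a rise of 2.54 ± 0.37 (adjusted p = 0.00302) without overlap. BIK1 (YCL029C), a microtubule plus-end protein, was the 1 of 12 strains of kinesins and plus-end proteins to rise, from 0.57, 0.72, 0.75 and 1.04 to 2.19, 2.76, 2.29 and 4.02, by 2.05 ± 0.38 (adjusted p = 0.00932). CTF19 of the inner kinetochore rose by 1.46 ± 0.40 (1 of 11 strains of its complex) and CTF18 of the cohesion clamp loader by 1.30 ± 0.34 (1 of 11). Both of these calls were lost without most single arrays, with adjusted p up to 0.104 and 0.106. Rises made up 8.33% of the list of kinesins and plus-end proteins and 9.09% each of the kinetochore and cohesion lists. These shares are near the 6.23% over all strains. Dynein, with its partner dynactin, moves the nucleus toward the bud. All 12 of its measured strains had negative differences with a median of -0.69, but ARP1 of dynactin alone fell (-1.04 ± 0.27, adjusted p = 0.0356, up to 0.094 without 1 array). This 1 fall among 12 is 8.33%, against 5.28% over all strains. ELM1, a kinase upstream of the spindle position checkpoint, had the largest difference in a list of 18 strains of the Snf1 kinase and glucose repression, at 1.86 ± 0.69. None of the 18 was called by limma (3 rises and 2 falls at an unadjusted p below 0.05), and ELM1 read 3.91 at 40 µg/ml and 0.27 to 1.57 on the other upper arrays.

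Some negative regulators of the Ras and protein kinase A pathway were among the largest rises, most of them between 20 and 25 µg/ml. This pathway signals glucose, and its inhibitors restrain growth and permit stress resistance. IRA1 (YBR140C), a GTPase-activating protein for Ras, read -0.44, 0.46, 0.55 and 1.48 and then 6.78, 6.77, 6.52 and 2.67. Its groups did not overlap, although the 40 µg/ml value lay far below the other upper ones, and the difference of 5.17 ± 0.86 (adjusted p = 0.00641) was the largest rise among called strains without overlap. IRA2, its paralog, read -1.17, -1.21, -0.75 and -0.28 and then 4.10, 1.23, 0.58 and 3.65 (3.24 ± 0.72, adjusted p = 0.02, up to 0.0549 without 1 array). GPB1 (YOR371C), a kelch protein that holds back the kinase, read 0.91, 0.40, -0.18 and 0.22 and then 4.57, 3.04, 3.85 and 3.94. It rose by 3.51 ± 0.35 (adjusted p = 0.000489, and 0.0106 with days as a covariate).

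On the activating side of the same pathway, GPR1, the glucose receptor, fell by 2.59 ± 0.38 on the log2 scale (adjusted p = 0.00331), from between -1.65 and -0.01 to between -3.82 and -2.75. In the whole list 5 of 15 strains rose and 2 fell, and the median difference was 0.21. The others called were outside the naming rule: GPB2 and the phosphodiesterase PDE2 rose by 1.76 each, GPB2 in section 1 of the layout (3.76) and not in section 2 (-0.24), and RAS2 fell by 1.38, lost without 3 arrays (adjusted p up to 0.0606). PDE1, the other phosphodiesterase and also outside the naming rule, differed by 0.21 and was not called. Without 1 array, 4 to 5 strains of the list rose and 1 to 3 fell.

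RIM15 (YFL033C), a kinase that protein kinase A inhibits and that is needed for entry into quiescence, stepped up between the ranges. It was at -0.97, -0.32, -0.43 and -0.39 in the lower range and at 3.39, 3.79, 3.28 and 2.88 in the upper range. The groups were more than 3 units apart and the rise was 3.86 ± 0.25 (adjusted p = 4.97e-05; 0.0049 with days). WHI2 (YOR043W), a partner of the Psr phosphatases in the general stress response, was already high at 2.93, 3.41, 1.48 and 2.12 and went to 6.12, 5.65, 7.41 and 5.82 (3.76 ± 0.49, adjusted p = 0.00168; 0.013 with days). These were the 2 called of 7 strains in the list of Whi2, the Psr phosphatases and stress factors.

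**Figure D3:**
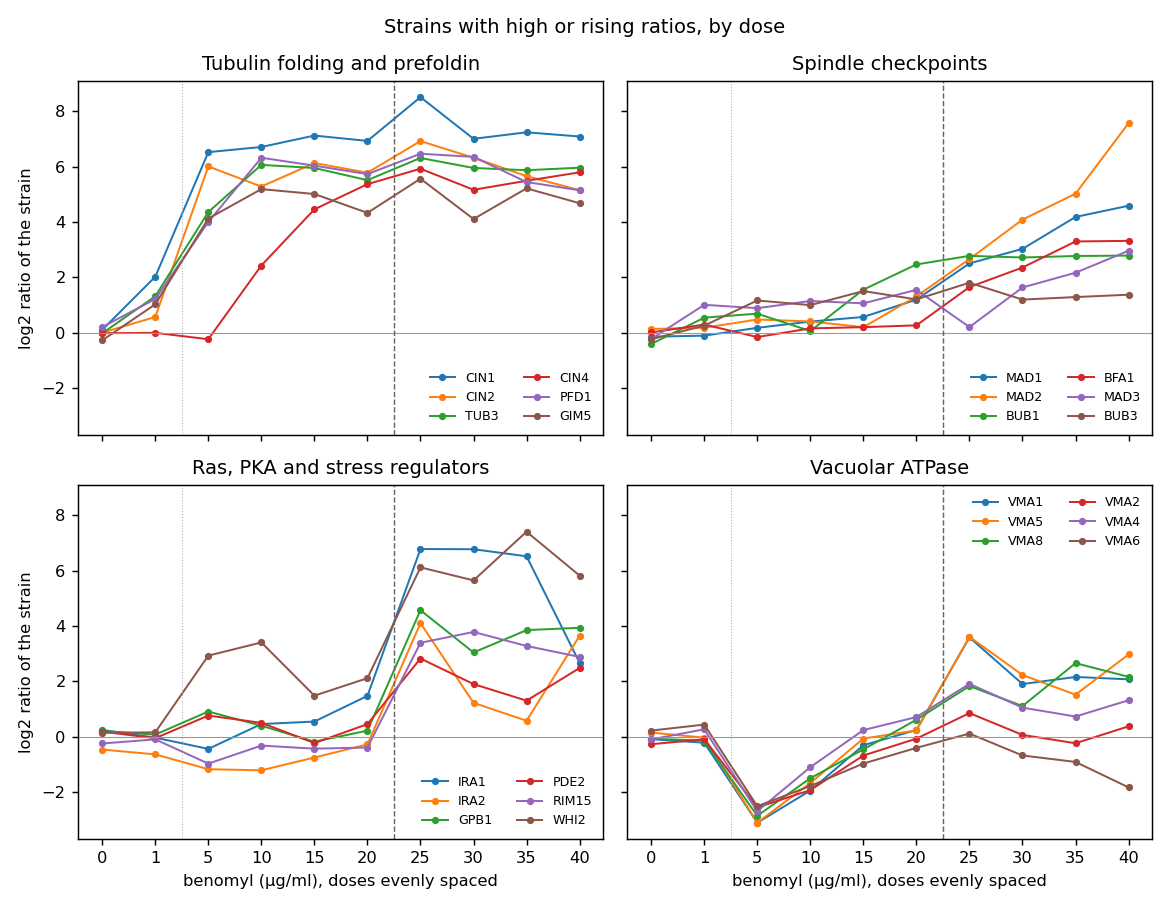
Log2 ratio by benomyl dose (evenly spaced) for strains with high or rising ratios, 1 line per deletion strain and 1 array per point; the dashed line separates the lower and upper range and the dotted line the arrays at 0 and 1 µg/ml. CIN1, CIN2 and TUB3 were above 4 from 5 µg/ml on, MAD2 and MAD1 climbed within the upper range, and RIM15, GPB1 and IRA1 stepped up between 20 and 25 µg/ml.

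Of 20 strains of the vacuolar ATPase, which acidifies the vacuole, 3 rose and 1 fell, and the 3 that rose crossed from below to above the array median. VMA1 (YDL185W), its catalytic subunit, read -3.10, -1.94, -0.31 and 0.25 and then 3.59, 1.90, 2.16 and 2.07. VMA5 (YKL080W), a regulatory subunit, read -3.10, -1.67, -0.07 and 0.23 and then 3.61, 2.23, 1.52 and 2.97. Both climbed through the lower range with dose and days and did not overlap with it in the upper range, with rises of 3.71 ± 0.69 (adjusted p = 0.00955) and 3.73 ± 0.72 (adjusted p = 0.011). VMA8 rose by 2.99 ± 0.66 and VMA11, a subunit of the membrane sector, fell by 1.05 ± 0.23 on the log2 scale, and each of these lost the call without 3 of the arrays (adjusted p up to 0.0637 and 0.0532). The other 16 of 20 strains were not called. With days as a covariate none of the 20 was called, and the differences of VMA1 and VMA5 were 1.88 and 1.98.

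In total 10 called strains went from at least 2-fold below to at least 2-fold above the median. Besides the 3 VMA strains, the 8 with the largest difference included SUI3, a subunit of the initiation factor eIF2 (4.20 ± 0.75), and DOC1 (YGL240W), a subunit of the anaphase-promoting complex, which read -1.91, -2.71, -2.30 and -2.20 and then 1.76, 1.75, 1.49 and 1.79 (3.98 ± 0.22, adjusted p = 2.1e-05). They also included SWS2, a mitochondrial ribosomal protein (3.57 ± 0.45), TAD2, a subunit of a tRNA adenosine deaminase (2.73 ± 0.32), and EFT2, which encodes elongation factor 2 (2.41 ± 0.37). SUI3 and TAD2 are essential, so no haploid deletion strain has to be its source. For DOC1 most of the rise was in section 2 of the layout (6.54) rather than section 1 (1.42).

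The longest list of mitochondrial genes was that of the mitochondrial ribosome. Among its 66 measured strains 25 rose (37.9%, against 6.23% over all strains) and none fell. The median strain mean went from 0.62 to 1.53, and 3 of the 25 were called in each section of the layout alone. IMG2 (YCR071C) read -0.95, -1.18, -0.50 and -0.02 and then 2.28, 2.33, 1.91 and 1.52, a rise of 2.67 ± 0.30 (adjusted p = 0.00096; 0.029 with days). MRPL51 rose by 1.84 ± 0.33, MRP51 by 1.79 ± 0.42 (lost without 4 arrays, adjusted p up to 0.0717) and MRPL16 by 1.78 ± 0.33. The count was 8 to 33 without 1 array, was 3 with arrays scaled to equal spread and was 3 with days as a covariate. Of 41 strains of the respiratory chain and ATP synthase, 34 had positive differences but 2 rose (4.88%, below the 6.23% over all strains). They were COX19, by 1.02 ± 0.23, and COX10, by 0.78 ± 0.21, both lost without 4 or more arrays (adjusted p up to 0.0605 and 0.119). No strain among 16 of the TCA cycle was called, and the largest difference was that of IDH1 (0.79 ± 0.34); at an unadjusted limma p below 0.05 there was 1 rise and 1 fall, and with days as a covariate 2 were higher.

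Iron-sulfur cluster assembly, a mitochondrial pathway that supplies cofactors to many enzymes, had 4 rises and 1 fall among 10 strains. Scaled to equal spread or after quantile normalization, 1 of the 10 was higher and 1 lower. With days as a covariate 1 was higher and 0 were lower. The median difference of 0.77 shrank to 0.03 with equal spread and was -0.05 after quantile normalization. NFU1 (YKL040C), a late-acting scaffold, was high at low dose and higher in the upper range, at 2.36, 2.36, 3.20 and 4.13 and then 5.36, 5.63, 4.76 and 6.15 (2.46 ± 0.44, adjusted p = 0.00783). GRX5, a monothiol glutaredoxin, went from 0.38, -0.08, -0.08 and 0.73 to 2.72, 2.36, 2.71 and 2.21 (2.26 ± 0.25, adjusted p = 0.000909). In neither strain did the groups overlap. SSQ1, a chaperone of the pathway, rose by 1.25 ± 0.34 with overlapping ranges, and ISA1 fell by 0.97 ± 0.23 on the log2 scale from 1.00 to 1.73 down to 0.07 to 0.47; both calls were lost without 3 or more arrays (adjusted p up to 0.117 and 0.0669).

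Calls in the lists of chromatin complexes went in different directions, and differences between these lists were not tested. The SWI/SNF remodeller moves nucleosomes at many inducible promoters. Of its 10 measured strains 6 fell and none rose, with a median difference of -3.12. SNF5 (YBR289W) read -1.57, -1.76, -0.86 and -1.57 and then -4.60, -6.18, -6.83 and -6.81, with a difference of -4.67 ± 0.47 (adjusted p = 0.000515; 0.013 with days). SNF2 (YOR290C), the ATPase, read -2.93, -1.82, -1.70 and -1.27 and then -5.41, -6.77, -6.83 and -6.81, with a difference of -4.53 ± 0.42 (adjusted p = 0.000335; 0.0054 with days). The last 2 or 3 upper values of these strains lie at the floor of the measure, a ratio of 0.01, and are bounds. SWI1 (YPL016W) had no value at 40 µg/ml and its fit used 3 upper arrays (-4.41 ± 0.46, adjusted p = 0.00098).

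SNF12 differed by -3.89 ± 0.46 and SWI3 by -3.88 ± 0.53, and SNF6, outside the naming rule, by -2.35 ± 0.23. The changes of SNF6 lay mostly in section 2 of the layout (-4.27, against -0.43). The 6 falls kept their calls without each array, and 6 strains were also lower with arrays scaled to equal spread. The 4 strains not called lack SNF11, SWP82, TAF14 and RTT102, whose differences were -0.08, -0.77, -0.39 and 0.09.

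The large Rpd3 histone deacetylase complex, a repressor, had 10 of 12 strains that fell and none that rose. SIN3 (YOL004W), its scaffold, read -0.92, 0.01, 0.86 and 1.05 and then -0.50, -1.93, -3.23 and -3.91, with overlapping ranges and a difference of -2.64 ± 0.71 (adjusted p = 0.0393). SDS3 differed by -2.41 ± 0.50, RPD3, the deacetylase, by -2.17 ± 0.50 and RXT2 by -2.10 ± 0.59. Each of these 4 calls was lost without at least 1 array, 35 µg/ml included (adjusted p up to 0.118, 0.0515, 0.0714 and 0.119), and the count for the complex was 2 to 10 without 1 array. With days as a covariate 1 of the 12 was lower. The opposite held for SWR1, the complex that loads the histone variant H2A.Z, of which 4 of 10 strains rose and none fell. SWR1 (YDR334W), its ATPase, read 0.34, 0.23, 1.24 and 2.12 and then 3.06, 3.52, 4.60 and 4.26, a rise of 2.88 ± 0.47 (adjusted p = 0.00595) with no overlap. HTZ1, the variant itself, rose by 2.67 ± 0.57, ARP6 by 2.59 ± 0.55 and VPS71 by 1.25 ± 0.26. HTZ1 and ARP6 lost the call without the 35 µg/ml array (adjusted p = 0.0589 and 0.0578). Of the 10 SWR1 strains 2 were higher with arrays scaled to equal spread, 2 after quantile normalization and 0 with days as a covariate.

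SAGA, a coactivator with several modules, was mixed, with 5 falls and 2 rises among 12 strains. Scaled to equal spread, 2 were lower and 2 higher, and with days as a covariate 0 were lower and 1 higher. The falls of SGF73 (-2.10 ± 0.44), SGF29 (-1.83 ± 0.31), SPT3 (-1.65 ± 0.32) and SPT8 (-1.37 ± 0.35) were the 4 largest, of which SGF73 and SPT8 lost the call without at least 1 array (adjusted p up to 0.054 and 0.0997). The 2 rises, ADA2 (1.37) and UBP8 (0.84), were outside the naming rule and both strains were at least 2-fold below the median in the lower range; UBP8 lost the call without 5 arrays (adjusted p up to 0.0698). In the COMPASS and H2B ubiquitination list, SDC1 (-1.83 ± 0.39) and SWD3 (-1.03 ± 0.24) fell, 2 of 9, the latter not without 4 of the arrays (adjusted p up to 0.0771). CPR1, a cyclophilin counted with the Set3 complex, was the 1 of 10 deacetylase strains called in that list (-2.05 ± 0.19), with the change in section 2 (-3.83) and little in section 1 (-0.26). CTK1 and CTK2, kinase and cyclin of the complex that phosphorylates RNA polymerase II, rose by 1.45 ± 0.28 and 0.87 ± 0.20, 2 of 7 in their list. For CTK1 the rise was in section 1 (3.29) and not in section 2 (-0.39), and CTK2 lost its call without 3 arrays (adjusted p up to 0.0778). Of these 7 strains 0 were higher with equal spread, after quantile normalization or with days as a covariate.

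Mediator links activators to RNA polymerase II. Of 12 strains of its middle, tail and head, 4 fell: SOH1 (-2.01 ± 0.41), NUT1 (-1.79 ± 0.34), SRB5 (-1.48 ± 0.42) and MED1 (-1.04 ± 0.23). The kinase module had 2 falls among 4 strains, SSN2 (-2.09 ± 0.46) and SSN8, the cyclin (-1.99 ± 0.39), and a median difference of -1.94. SRB5, MED1 and SSN2 lost the call without at least 3 single arrays (adjusted p up to 0.129, 0.0647 and 0.0629). With arrays scaled to equal spread 0 of the 12 were lower and 1 was higher, with a median difference of -0.24, and 0 of the 4 kinase module strains were lower. With days as a covariate 0 of the 12 and 1 of the 4 were lower.

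Strains of the EGO complex, which tethers and activates the growth regulator TORC1 at the vacuole, were already low in the lower range and lower in the upper range, in part at the floor of the measure. Of 12 strains in the list of EGO subunits and TORC1 activators 9 fell and none rose, the median strain mean went from -2.09 to -5.46, and all 9 kept the call without each array and in each section of the layout. GTR1 (YML121W), a Rag-type GTPase, read -3.00, -2.39, -2.19 and -2.75 and then -4.87, -6.77, -6.33 and -6.81 (-3.61 ± 0.42, adjusted p = 0.00106; 0.028 with days). LST4 (YKL176C), 1 of 2 subunits of the activator of the partner GTPase, read -2.75, -1.43, -1.09 and -1.08 and then -4.87, -6.27, -6.33 and -6.81 (-4.48 ± 0.48, adjusted p = 0.000714; 0.01 with days).

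LST7, the partner subunit, differed by -3.60 ± 0.32 and SLM4, an EGO subunit, by -3.50 ± 0.41. No lower value of these 4 strains reached down to the upper range. The strains of TOR1 and TCO89, TORC1 subunits outside the naming rule, were not called, at -0.67 and -0.77. With arrays scaled to equal spread 6 of the 12 were lower. NPR3 (YHL023C) belongs to SEACIT, which inhibits TORC1, and moved the other way, from 0.90, 1.32, 0.73 and 1.27 to 2.90, 3.89, 4.59 and 5.74 (3.22 ± 0.51, adjusted p = 0.00498). NPR2 of the same complex, outside the rule, differed by 1.46 ± 0.42 and just missed the threshold (adjusted p = 0.0504).

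MKS1 (YNL076W), an inhibitor of the mitochondrial retrograde pathway that keeps Rtg1 and Rtg3 out of the nucleus, had a large fall that reversed its course within the lower range. It read -3.07 at 5 µg/ml, 0.61, 1.44 and 1.47 at 10 to 20 µg/ml and -3.96, -4.48, -5.83 and -5.51 at 25 to 40 µg/ml. The upper values were all below the lowest of the lower range, at 5 µg/ml, and the difference was -5.06 ± 0.93 (adjusted p = 0.00895; -6.90 and 0.022 with days). RTG1, RTG2 and RTG3, which act in the pathway that Mks1 inhibits and were outside the naming rule, were high in both ranges, between 1.13 and 4.27 over the 8 arrays, and were not called.

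Of 24 strains of peroxisome biogenesis and β-oxidation 11 fell and 13 were not called. Peroxins import proteins into the peroxisome: receptors bind the cargo, a docking complex and a RING-finger ligase complex lie in the membrane, and further peroxins recycle the receptor or insert membrane proteins. PEX10 (YDR265W), of the ligase complex, read -3.56, -1.70, -0.15 and 0.59 and then -4.37, -5.61, -5.83 and -6.31. PEX2 (YJL210W), of the same complex, read -3.26, -1.53, 0.26 and 0.65 and then -4.0, -4.77, -5.33 and -5.81. In both the ratios climbed to the median by 20 µg/ml and dropped at 25 µg/ml below the 5 µg/ml value, so the ranges did not overlap. PEX8 (YGR077C), which joins docking and ligase complexes, read -3.42, -1.77, 0.27 and 0.30 and then -3.96, -5.77, -5.83 and -5.51. PEX5 (YDR244W), the main cargo receptor, read -3.27, -1.54, 0.33 and 0.59 and then -3.67, -5.18, -5.54 and -5.01.

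The 4 differences were -4.32 ± 0.81, -4.0 ± 0.78, -4.11 ± 0.80 and -3.88 ± 0.79 for PEX10, PEX2, PEX8 and PEX5 (adjusted p = 0.00948, 0.0115, 0.0113 and 0.0136). PEX5 alone of these lost the call without 1 array, 35 µg/ml (adjusted p = 0.0515). With days as a covariate they were -6.44, -6.04, -6.09 and -5.89, with adjusted p of 0.0102, 0.0102, 0.0109 and 0.0106. These are measured from the climb within the lower range, carried to 4 days, in which days and dose rose together. None of the 24 rose, and 12 were lower with days as a covariate. Without 1 array 6 to 14 were lower, and with arrays scaled to equal spread 3. Strains outside the naming rule differed by role. The docking peroxins PEX13 and PEX14 differed by -2.52 and -2.50 and were not called (adjusted p = 0.0503 and 0.0552) unless days were a covariate (0.011 and 0.0242). The receptor of the second import route, PEX7, and its helpers PEX18 and PEX21 differed by -0.41, -0.04 and -0.09, and the β-oxidation enzymes POX1, FOX2 and POT1 by 0.35, 0.08 and -0.07; none of these was called.

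The GID ubiquitin ligase degrades gluconeogenic enzymes when glucose returns. Of its 8 strains 5 fell and none rose, with a median difference of -2.01, and 5 of 8 were lower with days as a covariate. FYV10 (YIL097W) read -0.84, -0.86, -0.47 and -0.33 and then -2.38, -3.52, -3.75 and -3.05 (-2.55 ± 0.31, adjusted p = 0.0012; 0.0175 with days). UBC8 (YEL012W), the conjugating enzyme, differed by -2.44 ± 0.28 (adjusted p = 0.00096; 0.0123 with days) without overlap. VID28 read -3.50, -1.99, -0.21 and 0.16 and then -3.28, -4.25, -4.93 and -4.40, so that its 5 µg/ml value lay within the upper range (-2.83 ± 0.74, adjusted p = 0.0355). GID8 followed the same course (-2.02 ± 0.54), and both lost the call without 6 single arrays (adjusted p up to 0.108 each). Across the complex the count of falls was 2 to 6 without 1 array and 2 with arrays scaled to equal spread.

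**Figure D4:**
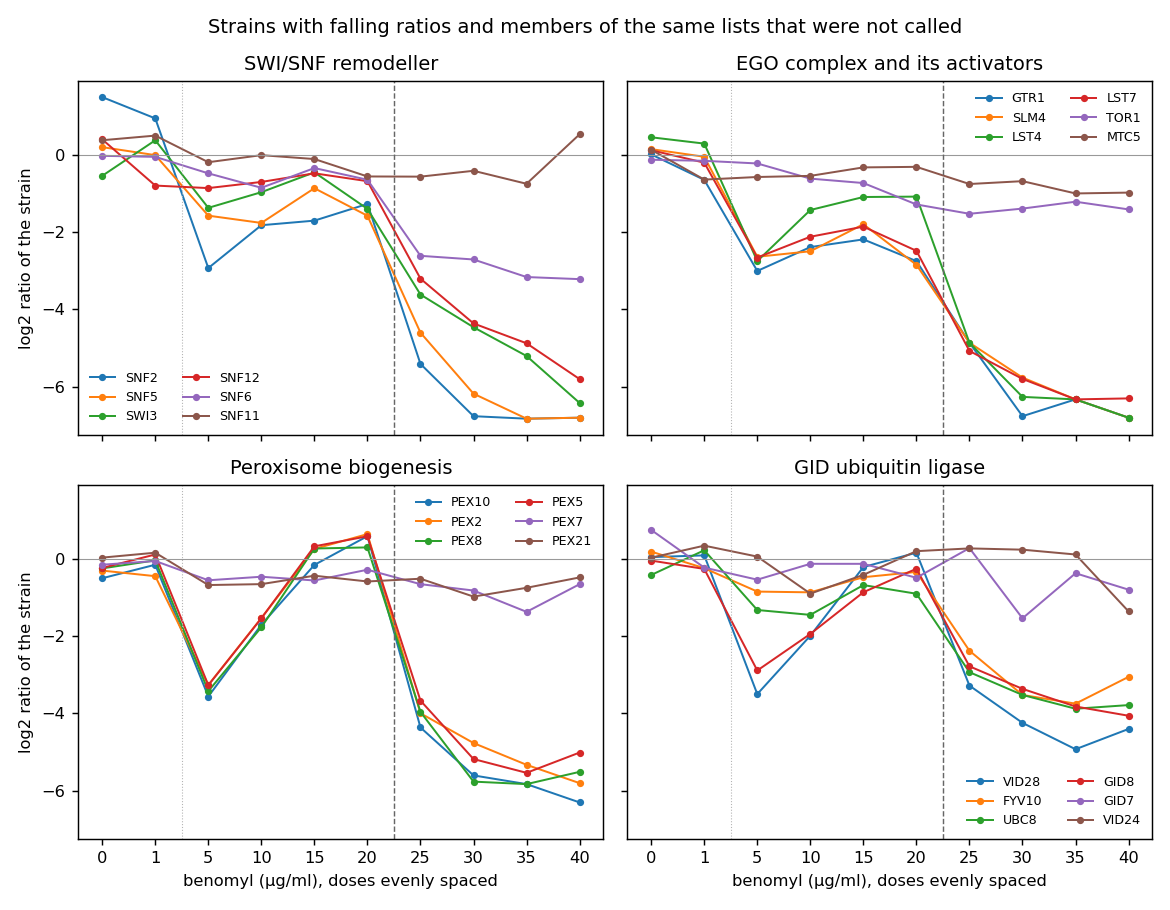
Log2 ratio by benomyl dose (evenly spaced) for members of 4 lists with falling ratios, 1 line per deletion strain and 1 array per point; dashed and dotted lines separate the dose ranges. PEX10, PEX2, PEX8 and PEX5 were between -3.56 and -3.26 at 5 µg/ml, near the median at 15 and 20 µg/ml and at -3.67 or below from 25 µg/ml on, while SNF11, TOR1, PEX7 and GID7 were not called.

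Of 66 large-subunit strains 22 fell and 2 rose, and of 47 small-subunit strains 10 fell and none rose, with median differences of -0.91 and -0.48. RPL20B read -1.13, -1.24, -0.79 and -1.03 and then -2.52, -4.22, -3.67 and -5.65 (-2.97 ± 0.54, adjusted p = 0.00882), and RPS16A read -2.15, -1.93, -1.07 and -1.02 and then -3.34, -4.07, -3.83 and -4.15 (-2.30 ± 0.32, adjusted p = 0.00245). Neither overlapped between the ranges. RPL2B differed by -2.89 ± 0.54, RPP2B by -2.83 ± 0.41, RPS21B by -2.25 ± 0.44 and RPS10A by -1.89 ± 0.38, whereas RPL35A (-2.90 ± 0.75) and RPS6A (-1.84 ± 0.52) lost the call without 5 and 6 arrays (adjusted p up to 0.105 and 0.13). With days as a covariate 1 large-subunit and 1 small-subunit strain were lower. With arrays scaled to equal spread 4 large-subunit and 0 small-subunit strains were lower, and the small-subunit median turned to 0.13 (0.02 after quantile normalization). RPL7A, among the 8 lowest strains of the lower range at -2.35, -3.38, -4.91 and -3.02, was at -3.77 to -6.04 in the upper range and was not called (-1.73 ± 0.63, adjusted p = 0.107), and its difference turned to 0.31 with equal spread and 0.09 after quantile normalization.

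Of 22 assembly factors of the large subunit 4 fell, LOC1 (-3.20 ± 0.47), MRT4 (-2.26 ± 0.45), REI1 (-2.20 ± 0.40) and DBP7 (-2.09 ± 0.24), and none rose. MRT4 moved in section 2 (-4.28) and little in section 1 (-0.25). Scaled to equal spread, 2 of the 22 were lower, and with days as a covariate 2. TRM44 (YPL030W), a tRNA methyltransferase, had the largest fall among called strains without overlap, from -2.84, -1.56, -0.39 and -0.72 to -6.16, -6.77, -6.83 and -6.81 (-5.27 ± 0.48, adjusted p = 0.000307; 0.0024 with days). Its upper values are at or near the floor, and it read -1.25 at 0 and 0.65 at 1 µg/ml. Of 19 strains of tRNA modification and Elongator 5 fell and none rose, and ELP2 (-2.57 ± 0.45), DEG1 (-1.73 ± 0.47, lost without 7 arrays, adjusted p up to 0.121) and NCS2 (-1.38 ± 0.28) were the next largest. Scaled to equal spread, 2 of the 19 were lower and 1 higher, and the median difference of -0.79 shrank to -0.08. With days as a covariate 2 were lower. Among 15 strains of non-essential nuclear pore proteins 8 fell and 1 rose. Scaled to equal spread, 3 of the 15 were lower, and with days as a covariate 1. NUP170 differed by -2.73 ± 0.51 and NUP188 by -2.16 ± 0.47 (lost without 15 or 35 µg/ml, adjusted p up to 0.0585), SAC3 by -1.71 ± 0.43 (lost without 5 arrays, adjusted p up to 0.0893), and NUP120 by -1.57 ± 0.27, the last with opposite signs in the 2 sections (0.38 and -3.52).

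Gene duplicates allow a comparison between strains of similar function. The difference between the 2 strains of a pair was computed on each array for 64 pairs of paralogs, and tested between the ranges by a 2-sided exact permutation test. None of the 64 passed after adjustment over the pairs, since the smallest p of 0.0286 gave an adjusted 0.114; at an unadjusted p below 0.05 there were 16 pairs, and limma on the same differences called 17. The pair with the largest measured value was LEU4 and LEU9, which both encode α-isopropylmalate synthase of leucine synthesis. LEU4 (YNL104C) read -3.28, -2.17, -1.71 and -3.11 and then -5.17, -6.77, -6.83 and -6.81, a difference of -3.83 ± 0.47 (adjusted p = 0.0012; 0.036 with days). LEU9 read 0.23, 0.28, -0.22 and -0.42 and then 0.23, 0.85, 1.12 and 0.83, which is 0.79 ± 0.26 and not called. The LEU4 values at 30 to 40 µg/ml lie at the floor, so its difference and that of the pair are bounds. The 2 strains differed in their change by -4.61 (exact p = 0.0286, adjusted 0.114, the smallest possible p; limma adjusted p = 0.000536), and by -4.51 and -4.72 in the 2 sections.

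The next pairs were ribosomal. RPP2A and RPP2B, acidic stalk proteins, differed in their change by 2.84, RPL2A and RPL2B by 2.46 and RPL1A and RPL1B by 2.46, in each case with the B strain falling and the A strain not called. For RPL12A and RPL12B the change differed by -2.76, but by 0.83 in section 1 and -5.26 in section 2. RPL22A fell and RPL22B did not pass (-2.22 between them), with -0.69 and -3.75 in the sections.

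Among regulators of mRNA decay and cap binding 4 of 21 strains rose. DHH1 (YDL160C), a helicase that promotes decapping, read -1.01, 0.17, 0.18 and 1.18 and then 3.86, 4.92, 4.51 and 4.34 (4.28 ± 0.43, adjusted p = 0.000498; 0.013 with days). EAP1, which binds the cap-binding protein eIF4E, read 0.71, 0.34, 0.29 and 1.67 and then 3.02, 3.55, 4.47 and 4.63 (3.17 ± 0.43, adjusted p = 0.00207). Both were clear of the lower range. The deadenylases CCR4 and POP2 rose by 1.96 ± 0.33 and 1.90 ± 0.30, but in section 1 (4.44 and 4.09) and not in section 2 (-0.49 and -0.29). UBI4 (YLL039C), the polyubiquitin gene induced by stress, went from -1.60 and -0.12 at 5 and 10 µg/ml to 3.29 and 2.41 at 15 and 20 µg/ml and to 4.07 to 5.11 in the upper range. Its rise of 3.85 ± 0.92 (adjusted p = 0.0266) was lost without 10, 35 or 40 µg/ml (adjusted p up to 0.0789), and was 1.52 with days as a covariate. RPN4, the activator of proteasome genes, rose by 1.64 ± 0.30 and SEM1 by 0.97 ± 0.24 (lost without 6 arrays, adjusted p up to 0.0833), 3 of 15 in the list. Of these 15 strains 0 were higher with equal spread, after quantile normalization or with days as a covariate.

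PSO2 (YMR137C), a nuclease for interstrand crosslinks, read -0.07, 0.50, 0.28 and 0.56 and then 3.12, 4.46, 4.51 and 5.92, a rise of 4.18 ± 0.49 (adjusted p = 0.00106; 0.034 with days) without overlap. MEC3, of the DNA damage checkpoint clamp, rose by 1.37 ± 0.24, and RTT107 and MUS81 differed by -1.97 ± 0.25 and -0.78 ± 0.22, so that 2 of 34 strains of DNA repair rose and 2 fell (5.88% each, near the shares of 6.23% and 5.28% over all strains). MUS81 lost the call without any one of the 8 arrays (adjusted p up to 0.132) and had opposite signs in the sections (0.17 and -1.72).

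SNQ2 (YDR011W), a multidrug exporter of the ABC family, read -0.30, -0.75, -0.12 and 0.06 and then 1.37, 2.23, 2.72 and 4.44 (2.96 ± 0.55, adjusted p = 0.00934), with no overlap and nearly equal changes in the sections (2.92 and 3.01). PDR15, another exporter, rose by 2.61 ± 0.21 (adjusted p = 0.00016), but with -0.02 in section 1 and 5.23 in section 2, and it read 1.37 at 0 µg/ml. These were the 2 called of 14 strains of drug efflux and its regulators; PDR5 and PDR1, outside the naming rule, differed by -0.56 and 1.35 and were not called. AHP1, a thiol peroxidase, rose by 2.73 ± 0.65 and ZWF1, of the pentose phosphate pathway, fell by 1.72 ± 0.49 on the log2 scale among 24 strains of oxidative stress defence, both lost without at least 4 arrays (adjusted p up to 0.0707 and 0.132). These counts are 4.17% each way, near the shares of 6.23% and 5.28% over all strains.

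The cell wall integrity list gave 4 rises and 3 falls among 14 strains. MKK1, a kinase of its cascade, rose by 2.01 ± 0.54 and RLM1, its transcription factor, by 1.85 ± 0.24, whereas SWI4 and GAS1 differed by -2.23 ± 0.58 and -1.96 ± 0.48; the calls of MKK1, SWI4 and GAS1 were lost without at least 5 arrays (adjusted p up to 0.11, 0.0981 and 0.0854). RLM1 moved in section 2 (3.22) and little in section 1 (0.46) and read -1.22 at 1 µg/ml. CBK1 (YNL161W), a kinase of polarised growth and cell separation, rose by 3.51 ± 0.42, from -1.38, -0.41, -0.16 and -0.31 to 1.93, 2.91, 3.08 and 3.86, and it read 1.80 at 0 µg/ml.

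Of 20 actin and endocytosis strains BEM2 (2.09 ± 0.51) and SLA1 (0.92 ± 0.23) rose, both lost without at least 3 arrays (adjusted p up to 0.0803 and 0.0866), and SLA1 with opposite signs in the sections (-0.62 and 2.53). Vacuolar protein sorting gave 3 rises (7.69%) and 4 falls (10.3%) among 39 strains, against 6.23% and 5.28% over all strains. Without 1 array the rises were 1 to 2 and the falls 0 to 6, and with days as a covariate there were none. VPS15 (1.65 ± 0.28), VPS34 (1.53 ± 0.42) and VPS30 (1.47 ± 0.42), which form the phosphatidylinositol 3-kinase complex, rose and VPS52 fell (-1.59 ± 0.43). VPS34, VPS30 and VPS52 lost their calls without 6 or more arrays (adjusted p up to 0.116, 0.0979 and 0.119). In autophagy, 4 of 26 strains rose, by 1.30 for ATG13, 1.16 for ATG31, 0.85 for ATG22 and 0.71 for ATG3, of which ATG31 kept its call without each array; the others reached adjusted p of up to 0.0842, 0.104 and 0.122.

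Of 63 strains of amino acid synthesis 7 fell (11.1%, against 5.28% over all strains) and 2 rose (3.17%, against 6.23%). After LEU4 the largest falls were those of GLN3, a nitrogen-responsive activator (-2.45 ± 0.46), and SER2 of serine synthesis (-1.89 ± 0.26), and HIS6 of histidine synthesis rose (1.68 ± 0.43, lost without 6 arrays, adjusted p up to 0.0956). ERG3 was the 1 of 7 late ergosterol strains to be called (-1.12 ± 0.24), with opposite signs in the sections (0.14 and -2.38) and adjusted p up to 0.0631 without 1 array.

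Ratios also differed between the ranges for some genes whose haploid deletion is not thought to grow. For these, no haploid strain has to be the source of the signal. In a list of such genes, 121 of them measured, 2 rose (1.65%) and 4 fell (3.31%). Both shares are below the 6.23% and 5.28% over all strains, and the median difference was -0.19 (0.00 as deposited). SUI3, TAD2, CMD1 and KEI1, also essential, are outside this list. CDC28, the main cell cycle kinase, rose by 2.63 ± 0.44 and TOM22, of the mitochondrial import pore, by 1.77 ± 0.35. TIM12 and NOP4 differed by -3.03 ± 0.65 and -1.67 ± 0.31; TIM12 lost the call without 15 or 35 µg/ml (adjusted p up to 0.0569). CDC28 read -2.06 and NOP4 2.44 at 1 µg/ml, values like those of the lower range. In the 2 sections CDC28 differed by 0.98 and 4.29, TOM22 by 3.28 and 0.25 and NOP4 by -3.19 and -0.16.

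Some of the largest rises therefore need their values at 0 and 1 µg/ml beside them. Of the 8 strains with the lowest means in the lower range, IZH1 (YDR492W), a membrane protein of zinc metabolism, was at -4.23, -4.33, -4.03 and -4.15 and then at -0.64, -0.93, -1.90 and -1.14. The groups did not overlap and the rise was 3.03 ± 0.28 (adjusted p = 0.000307), yet it was confined to section 1 (6.51, against -0.44 in section 2), and the strain read -2.95 at 1 µg/ml and 0.28 at 0 µg/ml. CMD1, essential calmodulin, rose by 3.03 ± 0.27 with -2.94 at 1 µg/ml and 1.19 at 0 µg/ml. QDR3, a multidrug transporter, rose by 2.47 ± 0.23 with -2.57 at 1 µg/ml, KEI1, essential for sphingolipid synthesis, by 2.87 ± 0.51 with -3.50, and RPL12B by 1.85 ± 0.47 with -2.44, a call lost without 6 arrays (adjusted p up to 0.0821). SLI15, an essential partner of the Aurora kinase, was not called (0.90 ± 0.32), with 4.48 in section 1 and -2.68 in section 2. EUG1 (YDR518W), a protein disulfide isomerase, rose by 3.44 ± 0.21 from between -0.62 and -0.09 to between 2.92 and 3.45, with 0.20 in section 1 and 6.69 in section 2, and it read 3.12 at 0 µg/ml, where neither pool had drug.

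The array layout has 2 sections that each hold spots of nearly every strain, taken here as sets of spots whose meaning the sources used here do not give. Of 611 called strains measured in both sections 555 had differences of the same sign in both, and 182 were called in each section alone in the same direction, 91 up and 91 down. In 136 called strains one section carried the change, defined after the values were seen as the smaller signed difference being under 0.25 of the larger. Of these 136, 39 (28.7%) already deviated 2-fold or more at 1 µg/ml on the side of the lower range and 3 on the other side, and 23 (16.9%) did so at 0 µg/ml on the side of the upper range and 3 on the other side. Of the 475 strains whose sections changed more evenly, 17 (3.58%) and 15 (3.16%) were. These strains had values at 1 µg/ml like the lower range or at 0 µg/ml like the upper range, and what sets them apart was not tested.

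**Figure D5:**
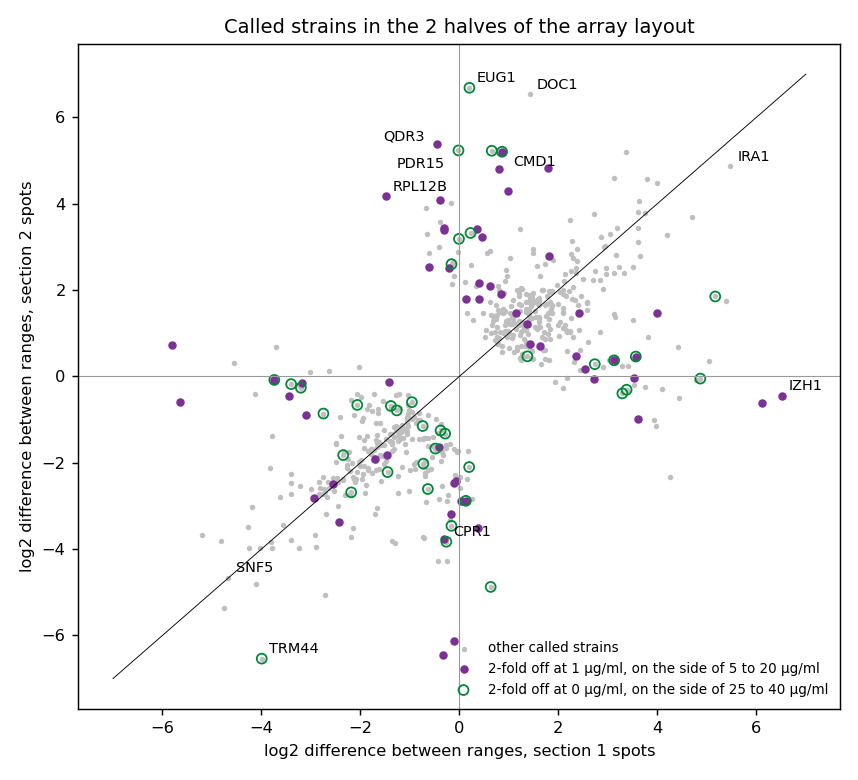
Log2 difference between the dose ranges (25 to 40 minus 5 to 20 µg/ml) computed from section 2 spots against that from section 1 spots for 611 called strains, with the line of equality; filled purple points are strains at least 2-fold off at 1 µg/ml on the side of the lower range, green rings strains at least 2-fold off at 0 µg/ml on the side of the upper range. SNF5 and IRA1 lie near the line, whereas IZH1, QDR3, PDR15, EUG1 and RPL12B changed in 1 section.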

How the data were processed

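The values were the deposited log2 ratios of 10 two-colour tag arrays, 1 per dose, with 22575 spots each. Per the labels, images came from a GenePix 4000B scanner and the GenePix 5.1 program; any normalization by the authors is not stated there. Ratios lay within 0.0001 of whole hundredths in at least 99.9% of values on 9 arrays, where the lowest is 0.01, the floor, and in 3.58% at 10 µg/ml; the cause was not tested. The platform annotation names 18794 spots and 5325 strains; symbols of 5321 were updated through gene numbers. Each array was centred on the median of its named spots, spots were averaged per strain, and 18 ratios coded 1000000 were set to missing. Where a value was missing the fit used the remaining arrays (2 strains).

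The ranges were compared with limma 3.58.1 (R 4.3.3; 6 residual and 3.84 prior degrees of freedom), Benjamini-Hochberg adjusted over all strains, and single values per array by exact permutation (SciPy 1.17.1). The fit was tested on simulated data. Nothing says which pools came from separate sporulations, so p-values measure the spread between single arrays of different doses. The number of arrays limits precision.

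Strains named are the 15 largest rises and falls among called strains without overlap, the 8 largest crossings, the 8 highest and 8 lowest of the lower range, the 4 largest called per list (else the largest), the 6 most unequal pairs, and TUB1, TUB2 and TUB3; others are marked. The comparison, the 47 gene lists and the pairs were chosen with earlier results of these data known, and the lists were not tested as sets. Alternatives were other scalings, spot summaries, moderations, days of selection, and leaving out each array.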

Additional observations from a re-analysis of the deposited data

Results flagged for a closer look

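In groups of 4 arrays, 1 value lay apart from the other 3 (Dixon's criterion) in 14 of the 327 groups examined for the named strains. Independent normal values meet the criterion in about 1 of 20 groups. That rate need not hold here, since each group spans different doses, the strains were chosen by their values and some share the floor. Whether the count differs from chance was not tested. In the upper range IRA1 was at 2.67 at 40 µg/ml against 6.52 to 6.78 on the others, and UBI4 at 4.07 at 30 µg/ml against 5.07 to 5.11. At 25 µg/ml the value nearest the lower range stood apart for LEU4 (-5.17), SNF2 (-5.41), TRM44 (-6.16) and PEX8 (-3.96); the others of the first 3 strains lie at the floor. At the same dose ALF1 was high at 3.94, CIN1 at 8.51 and VMA1 at 3.59. ELP2 was at -4.81 at 40 µg/ml, DOC1 at 1.49 at 35 µg/ml and VPS34 at 1.48 at 30 µg/ml. In the lower range RIM15 was at -0.97 at 5 µg/ml and MUS81 at 0.39 at 20 µg/ml.

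The arrays at 0 and 1 µg/ml, which the comparison does not use, held signals in strains whose change lay in 1 section: 39 deviated 2-fold or more at 1 µg/ml on the side of the lower range, and 23 at 0 µg/ml on the side of the upper range. The cause was not tested.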

How the results depend on the processing

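No paired analysis was possible because the labels give no replicate numbers and each dose has 1 array. For rises and falls, against 332 and 281, arrays scaled to equal spread gave 219 and 139, quantile normalization 193 and 184, days as a covariate 42 and 67, 4-day arrays only 4 and 14 (249 and 298 at an unadjusted p below 0.05, with the lone 20 µg/ml array assumed to vary like the others), and, chosen after seeing the data, 15 and 20 µg/ml alone as the lower range 110 and 149 and a call in each section alone 91 and 91. Leaving out 1 array gave 174 to 372 and 145 to 379. Ratios as deposited (495 and 218), the median of spots, either section, all 10 arrays, array weights, trend and robust moderation, strains near the floor left out and coded values kept stayed within 1.5 times.

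The difference in SD (0.425) was 0.347 to 0.497 and that in the share of strains off the median (12.4 percentage points) 9.14 to 14.8 without 1 array, where the smallest possible p exceeds the threshold; other settings kept p at 0.0286. Pairs called were 0 by permutation in each setting and 17 with limma. In these settings 12 to 16 of the 64 pairs had an unadjusted permutation p below 0.05. With a smallest possible p of 0.0286, passing the adjustment would take far more pairs at that value. The 0 therefore does not show that the pairs changed equally.

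Signs reversed in 1 section for 56 called strains, of which 12 are named by the rule, in section 1 for ERG3 (0.14), MUS81 (0.17), NUP120 (0.38), PDR15 (-0.019), QDR3 (-0.45), RPL12B (-1.49) and SLA1 (-0.62), and in section 2 for CCR4 (-0.49), CTK1 (-0.39), IZH1 (-0.44), POP2 (-0.29) and PAC10 (-0.19); PAC10 also reversed with equal spread (-0.11), and GIM5, not called otherwise, was lower after quantile normalization (-1.08), as was SLI15 in section 2 (-2.68). Causes were not tested. Values at the floor ratio of 0.01 are bounds.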

Other observations

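Several called strains outside the lists and the naming rule, chosen after their values were seen, belong to known pairs of regulators. IGO1, a protein that the kinase Rim15 phosphorylates at entry into quiescence, read -0.26, -0.32, -0.74 and -0.54 at 5 to 20 µg/ml and 1.99, 1.06, 1.41 and 1.92 at 25 to 40 µg/ml, a rise of 2.06 ± 0.26 (SE, 4 against 4 arrays, limma adjusted p = 0.00141); its paralog IGO2 differed by 1.64 ± 0.57 and was not called (adjusted p = 0.0986). PHO80, the cyclin that represses the phosphate starvation response, rose from 0.03, 0.28, 0.58 and 0.62 to 3.11, 3.10, 4.08 and 4.48 (3.31 ± 0.34), while PHO84, the phosphate transporter that this response induces, fell by 2.74 ± 0.37 on the log2 scale, from -0.29, -0.01, 1.07 and 0.59 to -1.57, -2.55, -2.62 and -2.85. SSY5 and PTR3 of the sensor for external amino acids rose by 2.00 ± 0.39 and 1.61 ± 0.43, and STP2, a transcription factor that the sensor activates, fell by 2.38 ± 0.51. SLX5 and SLX8, which form a SUMO-targeted ubiquitin ligase, differed by -2.67 ± 0.64 and -2.45 ± 0.56. The calls of PTR3, STP2, SLX5 and SLX8 were lost without at least 2 arrays, the 35 µg/ml array among them.

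SOK1 and MSN5 were high on the 1 µg/ml array (2.60 and 2.59) and in the lower range, and came down to -1.08 to -0.35 and -1.53 to 0.28 in the upper range. Their changes lay in section 2 for SOK1 (-6.12) and mostly in section 1 for MSN5 (-5.64).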
